A study of Rattus norvegicus with 6 samples.

Results

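Mitochondrial carriers, uncoupling proteins, outer membrane pores and protein import subunits were compared between normal and diabetic rat diaphragm. The members were the genes whose symbols start with Slc25a, Timm or Tomm followed by a digit, with Slc25a20 left out, together with Ucp2, Ucp3, Vdac1, Vdac2 and Vdac3, each read from probe sets annotated to 1 gene. They came to 56 of 10411 named genes, on 64 probe sets, and 46 of the 56 passed a filter on low signal and were tested. The 56 comprised 29 Slc25a carriers, 2 uncoupling proteins, 3 pores and 22 import subunits. Male Wistar rats received 1 intraperitoneal injection of streptozotocin at 60 mg/kg, a toxin of the pancreatic beta cell, or of the citrate buffer alone, at 8 weeks of age. The left costal hemidiaphragm was taken 4 weeks later after an overnight fast, from 3 normal and 3 diabetic rats, with 1 array per rat. No diabetic rat received insulin, and effects of the toxin itself cannot be told apart from those of diabetes in these groups. The values are MAS 5.0 signals, which are brightness values on a linear scale, and because probes differ in brightness the signal does not compare the level of 1 gene with that of another.

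Carriers of the Slc25a family sit in the inner mitochondrial membrane and exchange nucleotides, phosphate, amino acids, organic acids and cofactors between the matrix and the cytosol, and uncoupling proteins are members of the same protein family that can dissipate the proton gradient. Pores of the Vdac family let small metabolites cross the outer membrane. Most mitochondrial proteins are made in the cytosol and enter through the TOM channel of the outer membrane, after which the TIM23 channel takes proteins with a presequence, while the small Tim chaperones hand carrier precursors to the TIM22 complex. In a muscle that contracts without rest, these proteins link the supply of substrates and of ADP to respiration.

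Median signals per array ran from 167.6 to 180.8 and the trimmed mean was 500.2 on each. Of 12 skeletal muscle genes, all were above the filter and 1, the oxygen store Mb, was lower. Some markers of other cell types and fibre types also moved. Of all 7080 tested genes, 3.46% were higher and 3.55% lower at an adjusted p under 0.05 from limma, the threshold used for these lists. Of 9 fast fibre genes, Myh4, the myosin heavy chain of the fastest fibres, and Pvalb, a calcium buffer, were lower (3.44-fold and 3.13-fold), and the summed signal of the list was 164653 to 188771 on normal and 119911 to 154292 on diabetic arrays. None of 8 slow fibre genes passed. Of 6 fibroblast genes, 4 were lower (Col1a1, Col1a2, Col3a1 and Lum), with a summed signal of 43162 to 47339 on normal and 21918 to 23046 on diabetic arrays. Of 4 endothelial genes, Kdr was higher and Tie1 lower, and of 3 smooth muscle genes Acta2 was lower. None of 2 tested adipocyte, 5 leukocyte, 5 mesothelial or 2 red blood cell markers passed, so the adipocyte and red blood cell lists say little. All 6 liver genes lay below the filter, and so did Ucp1, the uncoupling protein that marks brown fat. Of 3 tested genes in the brown adipocyte list, Cidea was higher, Cox7a1 lower and Cox8b did not pass. With Ucp1 and Dio2 below the filter and calls in both directions, this list does not show a change in brown fat. Some of these genes had been picked on these arrays by the study. The spiked bacterial transcripts stood apart on diabetic replicate 3, with a median of 1.97 times their geometric mean level over the 6 arrays, while each other array lay between 0.833 and 0.889. The part of fibre or cell makeup in the member results was not tested, and in a bulk sample fewer cells of a type and less RNA per cell cannot be told apart.

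Most members differed little between the groups. At an adjusted p under 0.05 from limma's moderated test, 1 of 46 tested member genes was higher in diabetic diaphragm (2.17%, against 3.46% of all 7080 tested genes), 2 were lower (4.35%, against 3.55%), and 43 did not pass. Over all 9519 tested probe sets, named or not, the shares were 3.3% higher and 3.48% lower. The share of members called, 6.52%, thus lay near the 7.01% of all tested genes. The fitted log2 fold change was below 0 in 30 of 46 members, against 3483 of 7080 genes (49.2%), and the median was -0.10 in the members and 0.01 over all tested genes. The size of the members' median shifted with single arrays, but it stayed below 0 when any was dropped. It was -0.052 without normal replicate 1, -0.06 without normal replicate 2 and -0.13 without normal replicate 3. Without diabetic replicates 1, 2 and 3 in turn it was -0.085, -0.094 and -0.094. The median log2 signal of the tested members was 10.04, 10.08 and 9.74 on normal replicates 1, 2 and 3. On diabetic replicates 1, 2 and 3 it was 10.13, 10.1 and 9.924, so the groups overlapped by this measure. Its SD within a group, pooled over both groups, was 0.156, larger in size than the median fold change of -0.10. Normal replicate 1 was the highest of the 6 arrays in 13 of 46 members (28.3%, against 12.9% of all tested genes). Diabetic replicate 3 was the lowest in 15 (32.6%, against 23%) and diabetic replicate 2 in 10 (21.7%, against 12.7%). The part of these arrays in the members' estimates was not tested further. The fitted change was smaller than 1.2-fold in 32 of 46 members (69.6%) and in 52.3% of all tested genes. The median coefficient of variation among normal arrays was 14.5% for the members and 14.1% for all tested genes. In 6 members the highest diabetic signal was below the lowest normal signal (13.0%, against 14.9% of all tested genes), and in 2 the lowest diabetic signal was above the highest normal signal (4.35%, against 15.9%). The 3 members that passed were all carriers, namely Slc25a25, Slc25a33 and Slc25a12.

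**Figure D1:**
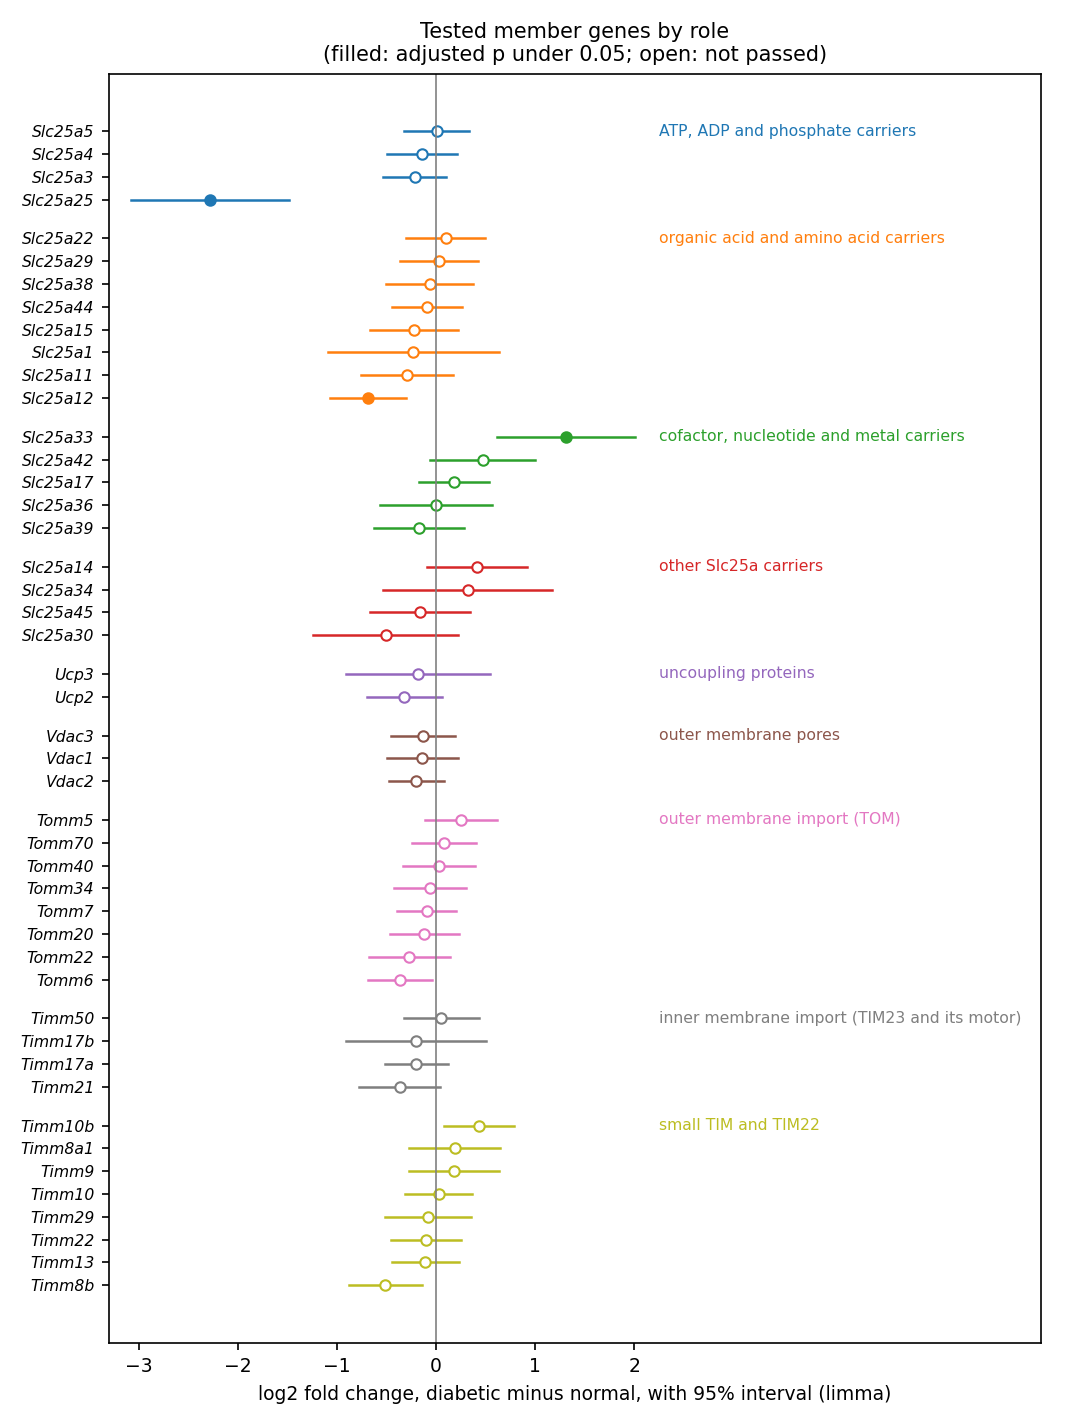
Log2 fold change (diabetic minus normal) of the 46 tested member genes, grouped by role, with 95% intervals from limma; filled points passed at an adjusted p under 0.05. Slc25a25 and Slc25a12 lie to the left of 0 and Slc25a33 to the right, and apart from Timm8b, Tomm6 and Timm10b the intervals of the other members span 0.

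Slc25a25, a calcium-activated carrier that exchanges ATP-magnesium for phosphate and so sets the adenine nucleotide content of the matrix, showed the greatest difference among the members. Its signal was 614, 514 and 939 in normal replicates 1, 2 and 3 and 229, 77.5 and 145 in diabetic replicates 1, 2 and 3. All diabetic arrays lay below all normal arrays, and 1 diabetic value lay under the filter level of 105.8. The mean was 689 ± 223 (SD, n = 3) among normal against 151 ± 75.8 (SD, n = 3) among diabetic rats, 4.58-fold lower. The log2 fold change from limma was -2.28 ± 0.36 (SE), with an adjusted p of 0.00595. It also passed when any single array was dropped (highest adjusted p = 0.0219, from limma on the 5 other arrays), and its log2 fold change then ranged from -2.65 to -1.87.

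Slc25a33, a carrier of pyrimidine nucleotides into the matrix, was the member that rose. Its signal was 484, 521 and 225 in normal replicates 1, 2 and 3 and 1069, 692 and 1173 in diabetic replicates 1, 2 and 3. The groups did not overlap, and normal replicate 3 was well below the other normal arrays. The mean was 409.9 ± 161 (SD, n = 3) among normal against 978 ± 253 (SD, n = 3) among diabetic rats, 2.39-fold higher. The log2 fold change from limma was 1.31 ± 0.32 (SE), with an adjusted p of 0.0352. When single arrays were dropped, it passed in 2 of 6 cases, those without normal or diabetic replicate 2 (highest adjusted p = 0.111 from limma). Without normal replicate 3 the fold was 1.95.

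Slc25a12, the aspartate/glutamate carrier of the malate-aspartate shuttle that moves reducing equivalents from glycolysis into mitochondria, fell. Its signal was 5437, 4052 and 4679 in normal replicates 1, 2 and 3 and 3393, 3014 and 2419.6 in diabetic replicates 1, 2 and 3. Every diabetic rat lay below every normal rat. The mean was 4723 ± 694 (SD, n = 3) among normal against 2942 ± 491 (SD, n = 3) among diabetic rats, 1.6-fold lower. The log2 fold change from limma was -0.69 ± 0.17 (SE), with an adjusted p of 0.0426. It passed in 1 of 6 cases with an array left out, that without normal replicate 2 (highest adjusted p = 0.142, without normal replicate 1, from limma). The carrier that completes the shuttle, Slc25a11, which exchanges oxoglutarate for malate, had signals of 7648, 5821 and 5525 in normal and 6908, 4821 and 4035 in diabetic muscle. These overlapped, with a log2 fold change of -0.29 (95% interval -0.76 to 0.17, adjusted p = 0.441 from limma). Slc25a13, the second aspartate/glutamate carrier, lay below the filter on mean signal, at 64.8 ± 10.2 (SD, n = 3) among normal against 89.0 ± 26.0 (SD, n = 3) among diabetic rats.

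The bases before the transcription start are shown for the 3 carriers that passed and for the import chaperone gene Timm8b, the member with the next lowest adjusted p, since the carriers hold the differences that passed and Timm8b came nearest to passing. Each is the 250 bases upstream of the start in RefSeq, build GRCr8, at chr3:36116582-36116831 (- strand) for Slc25a25, chr5:165502974-165503223 (- strand) for Slc25a33, chr3:76599537-76599786 (- strand) for Slc25a12 and chr8:59850487-59850736 (+ strand) for Timm8b. Capitals mark matches, on either strand, to any of 7 motifs: the cyclic AMP response element TGACGTCA, the E-box CACGTG, the palindromic motif of nuclear respiratory factor 1, the ETS core CCGGAAG bound by GABP, the GC box GGGCGG, the estrogen-related receptor element TCAAGGTCA and the FoxO element GTAAACA. No match shown overlaps another.
Slc25a25: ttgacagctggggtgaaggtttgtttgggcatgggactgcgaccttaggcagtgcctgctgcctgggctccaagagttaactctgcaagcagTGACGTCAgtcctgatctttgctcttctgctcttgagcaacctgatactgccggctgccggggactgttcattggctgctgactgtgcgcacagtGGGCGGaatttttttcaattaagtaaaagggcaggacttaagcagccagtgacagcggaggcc
Slc25a33: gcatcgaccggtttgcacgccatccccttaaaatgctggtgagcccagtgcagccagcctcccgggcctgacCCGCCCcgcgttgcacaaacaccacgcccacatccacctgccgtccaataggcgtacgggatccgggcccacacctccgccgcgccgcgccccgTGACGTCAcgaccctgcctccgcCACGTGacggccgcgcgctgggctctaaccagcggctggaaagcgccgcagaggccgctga
Slc25a12: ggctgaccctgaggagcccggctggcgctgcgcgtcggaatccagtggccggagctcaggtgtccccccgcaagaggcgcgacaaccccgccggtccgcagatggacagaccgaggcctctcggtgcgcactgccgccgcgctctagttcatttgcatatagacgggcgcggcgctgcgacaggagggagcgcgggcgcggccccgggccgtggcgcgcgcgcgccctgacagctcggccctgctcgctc
Timm8b: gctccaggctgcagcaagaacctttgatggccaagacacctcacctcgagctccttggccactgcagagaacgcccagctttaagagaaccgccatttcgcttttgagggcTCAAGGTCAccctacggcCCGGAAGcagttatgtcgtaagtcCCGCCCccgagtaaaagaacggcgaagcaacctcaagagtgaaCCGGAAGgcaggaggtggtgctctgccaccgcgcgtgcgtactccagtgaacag

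Of the 56 member genes, 51 had a promoter sequence. The cyclic AMP response element was found in 2 of the 51, Slc25a25, at bases 158 to 151 before the start, and Slc25a33, at bases 84 to 77, and in 1.7% of all 27457 promoters of this length. Of these genes, Slc25a25 fell and Slc25a33 rose. The upstream bases of Slc25a12 held none of the 7 motifs. Timm8b held 2 ETS cores, a GC box and the estrogen-related receptor element, the last found in no other member and in 0.368% of all promoters. The ETS core was present in 10 of 51 members (7.74% of all promoters), the GC box in 27 of 51 (32.4% of all), the E-box in 4 (5.79% of all), the nuclear respiratory factor 1 motif in 3 (4.17% of all) and the FoxO element in 0 (3.25% of all). The median GC content of these bases was 57.2% in the members and 52.0% over all promoters. A match describes the letters of the sequence and not a binding site.

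**Figure D2:**
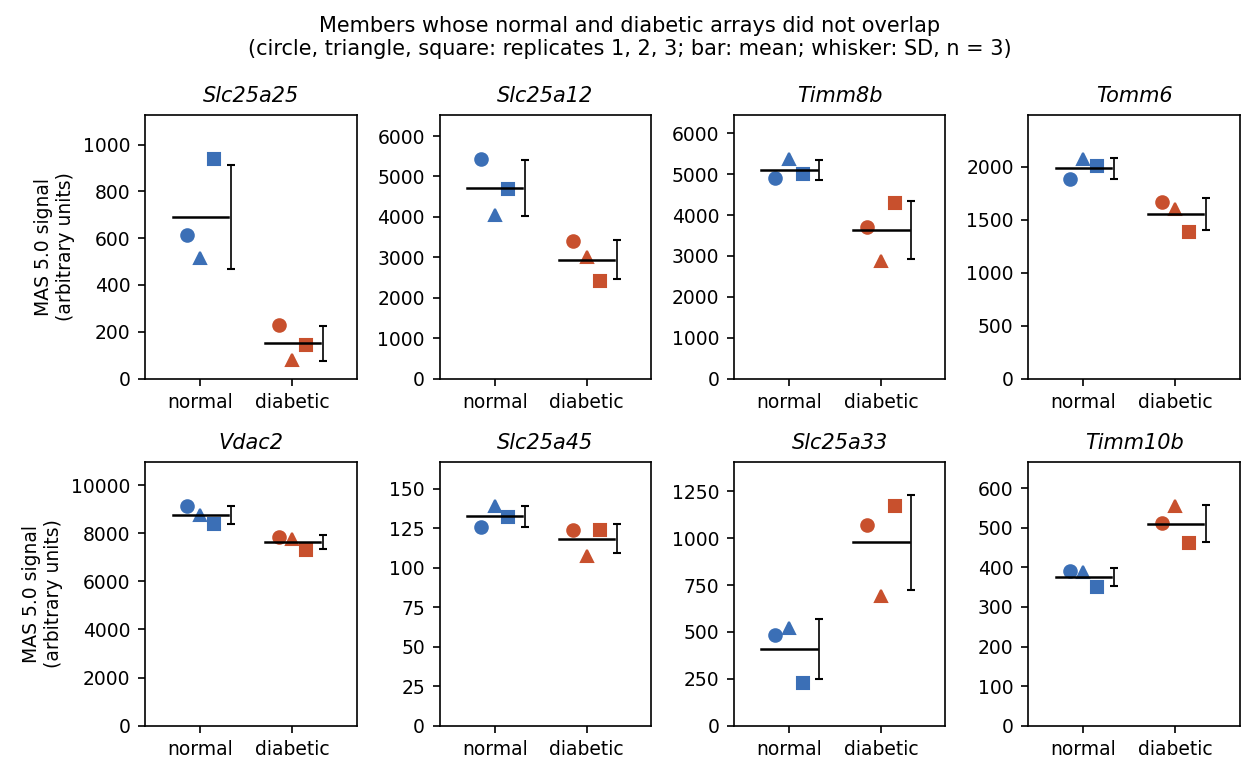
MAS 5.0 signal of the 8 tested member genes whose groups did not overlap, by rat, on linear axes that start at 0. Slc25a25 is lower by 4.58-fold and Slc25a33 higher by 2.39-fold, while Vdac2 (1.15-fold) and Slc25a45 (1.12-fold) are separated by small margins.

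The carriers that supply ATP synthase and export its product had bright probe sets and small differences. The signal of Slc25a3, the phosphate carrier, was 23243, 18693 and 22167 in normal replicates 1, 2 and 3 and 19014, 16181 and 19962 in diabetic replicates 1, 2 and 3. Its log2 fold change was -0.22 (95% interval -0.53 to 0.10, adjusted p = 0.396 from limma). Slc25a4, the ADP/ATP translocase of heart and skeletal muscle, had signals of 30682, 23054 and 31267 in normal replicates 1, 2 and 3 and 23623, 23919.8 and 29381 in diabetic replicates 1, 2 and 3. The groups overlapped, and the interval of its log2 fold change was -0.49 to 0.21. Slc25a5, the translocase of dividing and non-muscle cells, had signals of 2357, 2093 and 2169.5 in normal and 2492, 1967 and 2211 in diabetic muscle. Its estimate was close to 0, with an interval of -0.32 to 0.34. For all 3 the interval thus left out any change beyond 1 in either direction on the log2 scale. Slc25a23, another ATP-magnesium/phosphate carrier, lay below the filter, at 53.3 ± 23.3 (SD, n = 3) among normal against 35.8 ± 46.5 (SD, n = 3) among diabetic rats.

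Besides Slc25a12, the other 7 tested organic acid and amino acid carriers did not pass, with log2 fold changes from -0.29 in Slc25a11 to 0.10 in Slc25a22, a glutamate carrier. Slc25a44, the carrier of branched-chain amino acids, had a narrow spread, at 323 ± 21.8 (SD, n = 3) among normal against 303 ± 7.22 (SD, n = 3) among diabetic rats, and a log2 fold change of -0.09 (95% interval -0.45 to 0.27). Slc25a15, which carries ornithine, Slc25a29, which carries basic amino acids, and Slc25a38, which carries glycine for heme synthesis, had log2 fold changes of -0.22, 0.03 and -0.07. The citrate carrier Slc25a1 was dim and varied widely, at 146 ± 80.3 (SD, n = 3) among normal against 114 ± 24.4 (SD, n = 3) among diabetic rats, and its interval ran from -1.09 to 0.63. Slc25a10, Slc25a13, Slc25a18, Slc25a21 and Slc25a48 of this group lay below the filter. Slc25a21, the carrier of oxoadipate, was at the bottom of the range, with signals of 9, 9.8 and 9.1 in normal and 5.3, 4.4 and 6.4 in diabetic muscle.

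Among the carriers of cofactors, nucleotides and metals, Slc25a42, which brings coenzyme A into the matrix, had the next highest estimate after Slc25a33. Its signal was 602, 354 and 475 in normal replicates 1, 2 and 3 and 597, 856 and 525 in diabetic replicates 1, 2 and 3. The highest value was diabetic replicate 2, normal replicate 1 lay above 2 of the 3 diabetic arrays, and the log2 fold change of 0.47 did not pass (95% interval -0.06 to 1.00, adjusted p = 0.26 from limma). Slc25a36, a second pyrimidine nucleotide carrier, had signals of 1493, 2359.6 and 1448 in normal and 2474, 1495 and 1374 in diabetic muscle. Each group had 1 array far above its other arrays, and the estimate was -0.0018 (95% interval -0.57 to 0.56), against 1.31 for Slc25a33. The difference between these carriers was not tested. Slc25a17, which carries cofactors in peroxisomes, and Slc25a39, which carries glutathione, had log2 fold changes of 0.18 and -0.17. Slc25a14 and Slc25a30, relatives of the uncoupling proteins that are known from brain and kidney, did not pass, at 165 ± 27.8 (SD, n = 3) among normal against 221 ± 43.7 (SD, n = 3) among diabetic rats for Slc25a14 and 299 ± 116 (SD, n = 3) among normal against 207 ± 73.7 (SD, n = 3) among diabetic rats for Slc25a30. Slc25a27, an uncoupling protein of brain also named UCP4, and Slc25a35, whose substrate is not established, lay below the filter, at 41.2 ± 13.4 (SD, n = 3) among normal against 70.0 ± 30.0 (SD, n = 3) among diabetic rats for Slc25a27 and 103 ± 16.6 (SD, n = 3) among normal against 76.8 ± 22.8 (SD, n = 3) among diabetic rats for Slc25a35. Slc25a45 was separated between groups by a narrow margin, at 126, 139 and 132 in normal and 124, 108 and 124 in diabetic muscle, and did not pass (limma log2 fold change -0.16, adjusted p = 0.714).

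Neither uncoupling protein passed. Ucp3, the form of skeletal muscle, is known to rise with fasting and fatty acid supply, and all rats here had been fasted overnight. Its signal was 2223, 1824 and 778 in normal replicates 1, 2 and 3 and 1312, 1471 and 1111 in diabetic replicates 1, 2 and 3. The diabetic arrays fell between normal replicate 3, the lowest of the 6, and normal replicate 2. The mean was 1608 ± 746 (SD, n = 3) among normal against 1298 ± 180.3 (SD, n = 3) among diabetic rats (log2 fold change -0.19, 95% interval -0.91 to 0.54, adjusted p = 0.777 from limma). The estimate depended on single normal rats: it was -0.64 without normal replicate 3 (adjusted p = 0.088 from limma, the lowest over its 15 alternatives, of which the highest was 0.974) and 0.11 without normal replicate 1. Without normal replicate 3 the normal mean was 1.56 times the diabetic mean.

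Ucp2, which is found in many tissues and in leukocytes, was 563, 442 and 607 in normal replicates 1, 2 and 3 and 445, 418 and 417 in diabetic replicates 1, 2 and 3. The 3 diabetic values lay close together and overlapped with the normal ones through normal replicate 2 alone. The mean was 537 ± 85.4 (SD, n = 3) among normal against 426 ± 15.9 (SD, n = 3) among diabetic rats, with a log2 fold change of -0.32 (95% interval -0.70 to 0.06, adjusted p = 0.282 from limma). Slc25a34, a carrier whose substrate is not established, had the same low normal array as Ucp3 and Slc25a33, with signals of 2452, 1899 and 699.7 in normal replicates 1, 2 and 3 and 1646, 2361 and 1634 in diabetic replicates 1, 2 and 3. Its log2 fold change was 0.32 (adjusted p = 0.665 from limma), and without normal replicate 3 it was -0.22. Normal replicate 3 was the lowest of the 6 arrays in 8 of 46 tested members (17.4%), against 22.8% of all tested genes, while the median log2 signal of the tested members was lower there, at 9.74, than on the other arrays, at 9.92 to 10.13.

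**Figure D3:**
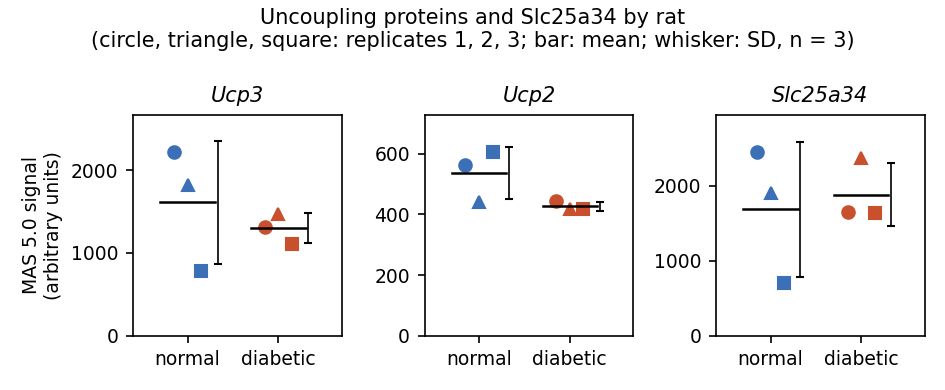
MAS 5.0 signal of Ucp3, Ucp2 and Slc25a34 by rat, with the mean and SD of each group (n = 3), on linear axes that start at 0. Normal replicate 3 (square) is the lowest of the 6 rats for Ucp3, at 778, and for Slc25a34, at 699.7, but the highest for Ucp2, at 607.

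The pores of the outer membrane gave small estimates below 0, and none passed. Vdac2 had signals of 9142, 8768 and 8377 in normal replicates 1, 2 and 3 and 7849.5, 7765 and 7304 in diabetic replicates 1, 2 and 3. All diabetic arrays lay below all normal arrays by a small margin (log2 fold change -0.20, 95% interval -0.48 to 0.08, adjusted p = 0.378 from limma). Vdac1, the most studied pore and a docking site of hexokinase, had signals of 12439.5, 9709.5 and 9908 in normal and 10246, 8076 and 10829 in diabetic muscle, and a log2 fold change of -0.14. A second, dimmer probe set of Vdac1 gave -0.17. Vdac3 had signals of 14683, 13558 and 14320.1 in normal and 11649, 12120.2 and 15338 in diabetic muscle. Diabetic replicate 3 was the highest of the 6 arrays for Vdac3, and the log2 fold change was -0.13 (95% interval -0.45 to 0.19).

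Of the 20 tested import subunits, none passed limma's test at an adjusted p under 0.05, and 3 did at an unadjusted p under 0.05, against 24.7% of all tested genes at that threshold. These were Timm8b, Tomm6 and Timm10b. The median log2 fold change of the import subunits was -0.09, and 15 of 20 estimates were smaller than 1.2-fold. In the TOM complex, the channel Tomm40 had signals of 445, 379.8 and 407 in normal and 466, 409 and 382 in diabetic muscle. The groups overlapped, and the interval of its log2 fold change was -0.33 to 0.39. The receptor Tomm70, which binds carrier precursors, had signals of 1374, 1224 and 1353 in normal and 1281, 1417 and 1473 in diabetic muscle, and its interval was -0.24 to 0.40. Tomm22, the central receptor, had an estimate of -0.27 (adjusted p = 0.413 from limma). The 2 probe sets of Tomm20, the receptor for presequences, had estimates of opposite sign, at -0.12 for the brighter and 0.19 for the dimmer one, and neither passed.

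Tomm5, Tomm6 and Tomm7 are small subunits that stabilise the channel. Tomm6 had signals of 1879, 2074 and 2004 in normal replicates 1, 2 and 3 and 1667, 1603 and 1384 in diabetic replicates 1, 2 and 3. All diabetic arrays lay below all normal ones, 1.28-fold on average, and the log2 fold change of -0.36 did not pass (95% interval -0.68 to -0.04, adjusted p = 0.168 from limma). Tomm5 had signals of 1277, 1578 and 1424 in normal and 2002, 1611 and 1507 in diabetic muscle, with a log2 fold change of 0.25. Tomm7 had signals of 3579.6, 3445 and 3581 in normal and 3064, 3460.3 and 3432 in diabetic muscle, with a log2 fold change of -0.09. The difference between the subunits was not tested. Tomm34, a cytosolic co-chaperone of import, had a log2 fold change of -0.06, and Tomm40l, a second form of the channel, lay below the filter.

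In the TIM23 branch, the channel subunit Timm17a had signals of 3850.3, 3387 and 3455 in normal and 3459, 2875 and 3005 in diabetic muscle. Diabetic replicate 1 lay among the normal arrays, and the log2 fold change was -0.20 (95% interval -0.51 to 0.12, adjusted p = 0.443 from limma). Timm21, which couples the channel to the TOM complex and the respiratory chain, had signals of 1574, 1275 and 1771 in normal and 1180.5, 1404 and 1001 in diabetic muscle. Its log2 fold change was -0.37 (95% interval -0.77 to 0.04, adjusted p = 0.253 from limma). The receptor Timm50 had signals of 436, 469 and 465 in normal and 410.5, 458 and 566 in diabetic muscle. Its estimate was 0.054. Timm17b, the second form of Timm17, was dim, with an estimate of -0.20 (limma adjusted p = 0.754). Timm44, the anchor of the import motor, lay below the filter at 67.3 ± 16.4 (SD, n = 3) among normal against 63.0 ± 31.3 (SD, n = 3) among diabetic rats. The channel gene Timm23 was read only by a probe set that it shares with Timm23b and a pseudogene, so it is no member. That probe set had a mean of 7847 ± 394 (SD, n = 3) among normal against 6988 ± 579 (SD, n = 3) among diabetic rats and did not pass (limma log2 fold change -0.17, adjusted p = 0.485).

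The small Tim chaperones of the intermembrane space held the lowest adjusted p of the import subunits and estimates in both directions. Timm8b, which escorts membrane proteins to the TIM complexes, had signals of 4912, 5378 and 5016 in normal replicates 1, 2 and 3 and 3704, 2879 and 4299.6 in diabetic replicates 1, 2 and 3. Every diabetic rat lay below every normal rat, and the mean was 5102 ± 245 (SD, n = 3) among normal against 3627 ± 713 (SD, n = 3) among diabetic rats, 1.41-fold lower. It did not pass (limma log2 fold change -0.51, 95% interval -0.88 to -0.14, adjusted p = 0.0976). Timm10b, the small Tim bound to the TIM22 complex, had signals of 389.9, 389 and 350.2 in normal replicates 1, 2 and 3 and 513, 556 and 462 in diabetic replicates 1, 2 and 3. Here every diabetic rat lay above every normal rat, 1.35-fold on average, and this did not pass either (limma log2 fold change 0.44, 95% interval 0.08 to 0.79, adjusted p = 0.131). Timm10 and Timm9, which form a chaperone ring together, had log2 fold changes of 0.03 and 0.18. Timm13 and its partner Timm8a1 had -0.11 and 0.19. Timm22, the channel for carriers, had signals of 379.7, 410.0 and 366 in normal and 336, 357 and 384 in diabetic muscle. Its log2 fold change was -0.10, and a dimmer probe set gave 0.18. Timm29, another subunit of that complex, had -0.08.

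Beside the members, other genes of import and a wider list of mitochondrial membrane genes were read. The wider list holds transporters but also genes that are not, such as Immt, Chchd3 and the creatine kinase Ckmt2. These 3 had log2 fold changes of -0.48, -0.45 and -0.52. Of 17 tested import partners (motor chaperones, processing peptidases, sorting machinery), none passed limma's test at an adjusted p under 0.05, against 7.01% of all tested genes. Estimates lay below 0 in 13, against 49.2% of all tested genes. The median log2 fold change was -0.22, beside 0.01 over all tested genes. Dnajc15, a cochaperone of the motor, came nearest, with signals of 3378, 2919 and 2408 in normal and 1995, 1603 and 2013 in diabetic muscle, and an adjusted p of 0.0558 from limma. At an unadjusted p under 0.05 it was joined by Pmpcb, a processing peptidase subunit (log2 fold change -0.51), and Samm50, the sorting channel of the outer membrane (log2 fold change -0.38). Of all tested genes, 24.7% passed at that threshold. Hspa9, the motor chaperone, had a log2 fold change of 0.04. Of 13 tested genes on the wider list, 1 was lower, against 3.55% of all tested genes. Estimates lay below 0 in 11, against 49.2% of all tested genes, and the median was -0.39. All diabetic arrays lay below all normal arrays in 7 of these 13 genes and in 6 of the 17 import partners, against 14.9% of all tested genes. All lay above in 0 genes of either list, against 15.9% of all tested genes. The gene of the wider list that passed was Mpc1, a subunit of the mitochondrial pyruvate carrier, which belongs to another protein family than Slc25a. Its signal was 13585, 12629 and 13528 in normal replicates 1, 2 and 3 and 7743, 9348 and 8954 in diabetic replicates 1, 2 and 3. The groups were well apart, and the mean was 13248 ± 536 (SD, n = 3) among normal against 8682 ± 836 (SD, n = 3) among diabetic rats, 1.53-fold lower. The log2 fold change from limma was -0.61 ± 0.13 (SE), with an adjusted p of 0.0227. Mpc2, the other subunit, had signals of 5302, 6392 and 5619 in normal and 5182, 3639 and 3198 in diabetic muscle. These did not overlap, and Mpc2 did not pass (limma log2 fold change -0.55, adjusted p = 0.109). Immt and Ckmt2 came nearer to passing than Mpc2 (limma adjusted p = 0.0691 and 0.105), also with all diabetic arrays below all normal arrays.

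**Figure D4:**
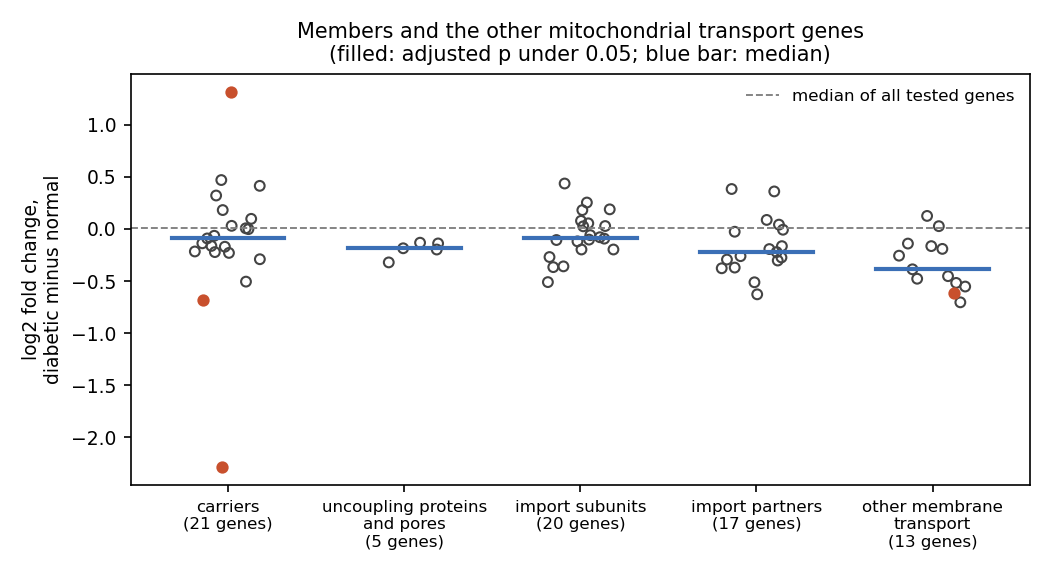
Log2 fold change (diabetic minus normal) of the tested carriers, uncoupling proteins and pores, and import subunits, beside the import partners and a wider list of mitochondrial membrane genes (labelled other membrane transport). Each point is 1 gene, filled where it passed, and the dashed line is the median of all tested genes. The medians are -0.09 for the carriers, -0.09 for the import subunits, -0.22 for the partners and -0.39 for the wider list. That list includes genes that are not transporters, such as Immt, Chchd3 and Ckmt2.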

How the data were processed

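RNA of the left costal hemidiaphragm was hybridised to Affymetrix RAE 230A arrays, 1 per rat, for 3 normal and 3 diabetic rats. The deposited values are intensity values that the authors made with MAS 5.0, 1 signal per probe set, scaled per array. For the target value and other settings, nothing is stated in the sources at hand. Values below 1 were raised to 1 before log2 was taken, and the arrays were not normalised again. Left out were 57 control probe sets and, of the others, the dimmest 40% by mean signal (105.8 or less). limma 3.58.1 in R 4.3.3 (lmFit, eBayes with a variance trend) was run on the other 9519, with Benjamini-Hochberg adjustment over all of them. The procedure was tested on simulated data. The study's BAM test and its present calls were not repeated. Names came from the annotation of the platform, and where a gene had several probe sets the brightest stood for it. Folds are ratios of group mean signals. Promoter sequences came from RefSeq. The genes named in full are members that passed, members without overlap, a fixed set of pores, channels and receptors, and the 5 highest and 5 lowest estimates. Further members (Slc25a11, Slc25a13, Slc25a36, Slc25a44, Tomm5, Tomm7 and others) and genes of other lists that did not pass were chosen after their values were seen. The members and lists were chosen with earlier results of these data known. Each rat is a separate animal, and the 6 arrays limit the precision. Alternatives were quantile or median scaling, an offset of 16 or 64, no filter or one at the 60th percentile, no variance trend, array weights, a replicate block, each array left out, the mean over probe sets and other thresholds.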

Additional observations from a re-analysis of the deposited data

How the results depend on the processing

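Of the 3 members that passed, Slc25a25 passed under all of its 15 alternatives (adjusted p 0.00383 to 0.0219 from limma), Slc25a33 under 8 of 15 (0.0287 to 0.111) and Slc25a12 under 6 of 15 (0.0296 to 0.142), each with its direction kept. No filter, no variance trend and the replicate block each left 0 members higher and 1 lower, scaling to the same median left 1 lower, and an unadjusted p under 0.05 gave 2 higher and 4 lower. With each array left out in turn, 0 to 1 members were higher and 1 to 2 lower. Over all probe sets, 314 were higher and 331 lower; leaving out an array gave 133 to 226 and 179 to 235, the lowest counts both without diabetic replicate 3. No filter gave 200 probe sets higher, an adjusted p under 0.1 gave 562 and 585, and an unadjusted p under 0.05 gave 1163 and 1112. With the replicate number as a block, 162 probe sets were higher and 170 lower, but the labels do not say that the numbers pair the rats. The residuals of same-numbered rats correlated at 0.0977, -0.195 and -0.068, and those of differently numbered rats at -0.124 to 0.2. With 3 rats per group these values cannot show whether same-numbered rats shared a batch. Of the 43 members that did not pass, 15 changed sign under at least 1 alternative, 28 kept their sign under all that were run and none passed under any other fit. Without 1 array the log2 fold change ranged from -0.64 to 0.18 in Slc25a1, -0.078 to 0.15 in Slc25a29, -0.22 to 0.68 in Slc25a34, -0.26 to 0.23 in Slc25a36, -0.19 to 0.063 in Slc25a38, -0.32 to 0.015 in Slc25a39, -0.079 to 0.091 in Slc25a5, -0.061 to 0.13 in Timm10, -0.49 to 0.065 in Timm17b, -0.24 to 0.11 in Timm29, -0.074 to 0.16 in Timm50, -0.051 to 0.092 in Tomm40 and -0.64 to 0.11 in Ucp3. Array weights gave -0.034 for Slc25a29, 0.084 for Slc25a36, -0.021 for Slc25a5 and 0.018 for Timm29, scaling to the same median gave 0.0089 for Slc25a36, and the mean over probe sets gave 0.039 for Timm22 and 0.038 for Tomm20. The cause of these shifts was not tested. The median of the members ran from -0.13 to -0.052 when an array was left out. A dim signal limits Slc25a25 on diabetic arrays, Slc25a1 and Slc25a45.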
